A study of Sus scrofa with 10 samples.

Results

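Peripheral blood of pigs was compared between 28 days of age (D28, which the labels call the weaning stage) and 180 days of age (D180, sexual maturity). The comparison rests on 4 of the 10 libraries of the series, 2 at each age, chosen by the age in their labels. All pigs were healthy females of the Qingyu breed, no treatment is described, and each library came from another pig, so that no animal was followed from D28 to D180. The other libraries came from 0 days (D0), 7 days (D7) and 2 years (Y2) and enter only the estimate of the spread between pigs and a few sentences on context. Total RNA of whole blood was depleted of ribosomal RNA and read with strand information kept. Haemoglobin RNA was not removed by any step that the methods describe. The authors deposited FPKM, the fragments of a transcript per kilobase of its length, relative to the mapped reads of its library, for 12354 mRNAs and 5946 long noncoding RNAs (lncRNAs).

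Whole blood mixes RNA from very different cells. Mature red cells of mammals have no nucleus, and the haemoglobin RNA of blood comes mostly from reticulocytes, the young red cells that still carry RNA after leaving the bone marrow. Neutrophils, monocytes, basophils, platelets and the B, T and natural killer (NK) lymphocytes supply most of the rest. Weaning falls while a piglet still depends in part on antibodies from its mother, and its own B and T cells accumulate over the following months. Because FPKM is a share of each library, a fall in a few very abundant RNAs raises the FPKM of all others. A fall in the number of cells of a type and a fall in the RNA of each cell cannot be told apart in bulk blood.

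Such a shift in composition lay between these ages. HBB, the beta chain of haemoglobin, took 32.8% and 32.9% of the summed mRNA FPKM in the D28 pigs and 17.7% and 15.1% in the D180 pigs. The 10 most abundant mRNAs together took 88.2% and 87.2% at D28 and 69.6% and 69.5% at D180. The median mRNA was at 1.96 and 1.85 FPKM in the D28 pigs and at 5.39 and 5.64 FPKM in the D180 pigs, so that the typical mRNA was 2.92 times as high at D180 in the deposited values. Every result is therefore given on 2 scales, as deposited and after scaling by median-of-ratios factors. Such a factor is the median ratio of a library's mRNAs to their geometric means over the 10 libraries, and it sets the typical mRNA equal between libraries. The factors were 1.00 and 0.971 for the D28 libraries and 2.87 and 3.03 for the D180 libraries. Whether the typical mRNA of blood rose in absolute amount cannot be told apart from the fall in the share of HBB and of the 10 most abundant mRNAs together, since no spike-in was described.

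Differences are given as D180 minus D28 on the log2(FPKM + 1) scale, where low values appear to change less than they do. The test was that of limma, with a spread estimated from all 5 ages and moderated over all rows, and with Benjamini-Hochberg adjustment over all rows of a table. An mRNA or lncRNA was called where the adjusted p was at most 0.05 and the log2 difference was at least 1.5 either way. An exact permutation test of 2 pigs against 2 can give no p-value under 0.333. As deposited, 2194 mRNAs (17.8% of all tested) were called higher at D180 and 111 (0.898%) were called lower. After scaling, 54 mRNAs (0.437%) were called higher and 320 (2.59%) were called lower. All 54 called higher after scaling were among the 2194, and all 111 called lower as deposited were among the 320. At the adjusted p alone, 11195 mRNAs (90.6%) were higher and 410 (3.32%) lower as deposited, against 1783 (14.4%) and 2222 (18%) after scaling, and 1488 mRNAs passed as higher on the first scale and as lower on the second. The median log2 difference over all mRNAs was 1.07 as deposited and -0.016 after scaling. It was 0.391 on a further scale, in which the 10 mRNAs with the highest mean FPKM were removed and the rest of each library brought to one total. The direction of a gene is given below with the scales on which it held.

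**Figure D1:**
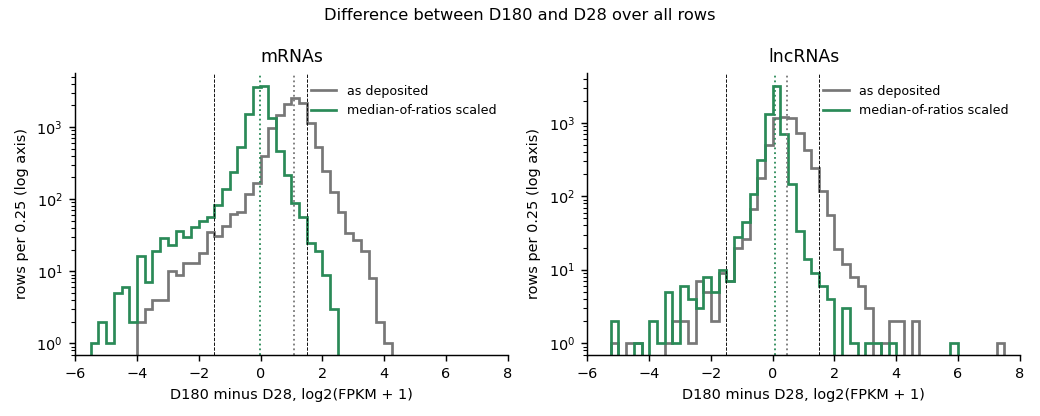
Number of mRNAs (left) and lncRNAs (right) by their difference between D180 and D28 on the log2(FPKM + 1) scale, in steps of 0.25 and on a log count axis, as deposited (grey) and after median-of-ratios scaling (green). Dotted lines mark the medians (1.07 and -0.016 for mRNAs) and dashed lines the limits of 1.5 either way; scaling moved the bulk of the mRNAs to 0 and left a long tail of lower mRNAs.

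Red cell RNA fell on both scales. Of 54 measured members of the 4 red cell lists (haemoglobin chains, haem synthesis and iron uptake, red cell membrane and surface, reticulocyte maturation and red cell enzymes), 42 passed the adjusted p as lower on both scales and 27 were called lower on both. Among all mRNAs, 3.32% passed as lower as deposited and 18% after scaling, and 0.898% and 2.59% were called lower. In sum, the 4 haemoglobin chains measured of 11 listed fell from 348066 and 323439 FPKM at D28 to 134562 and 112124 FPKM at D180. Nearly all of that sum was HBB, and HBA1 and HBA2 were not among the measured chains. The membrane and surface proteins fell from 1394 and 1572 FPKM to 498 and 468 FPKM.

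HBB was at 343904 and 320288 FPKM in the D28 pigs and at 133644 and 111246 FPKM in the D180 pigs. Both D180 pigs lay below both D28 pigs. The mean at D28 was 2.71 times that at D180 as deposited (log2 difference -1.44 ± 0.26, SE, limma adjusted p = 0.00056) and 8.09 times after scaling (-3.03 ± 0.46, adjusted p = 0.0014). HBM, the mu globin of the alpha cluster, fell from 4059 and 3058 FPKM to 903 and 865 FPKM. HBQ1, the theta globin, fell from 35.7 and 23.1 FPKM to 6.57 and 5.92 FPKM. HBZ encodes the zeta globin of the embryo, which is replaced by the alpha chain before birth in most mammals. It was at 66.7 and 70.7 FPKM at D28 and at 7.91 and 7.15 FPKM at D180, the largest log2 difference of the 4 chains (-3.03 ± 0.09 as deposited, -4.31 ± 0.09 after scaling). All 4 measured chains passed the adjusted p as lower on both scales, but in a limma fit of only the 4 libraries HBB did not (adjusted p = 0.0989 as deposited and 0.0777 after scaling), nor did it with factors from those libraries (0.138). The globin genes are alike in sequence, so that reads may be split between them with error.

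The enzymes that build haem fell with the globins, while the proteins of iron uptake and haem breakdown did not move together with them. ALAD, UROS, UROD and FECH are enzymes of that pathway. ALAD fell from 111 FPKM in both pigs to 13.5 and 12.8 FPKM, and FECH, which inserts the iron, fell from 121 and 139 FPKM to 27.0 and 24.1 FPKM. ALAS2, the first and rate-setting enzyme of haem synthesis in red cells, was at 4038 and 4058 FPKM at D28 and at 1525 and 1369 FPKM at D180. Its log2 difference of -1.49 fell just short of the limit as deposited and was -3.06 after scaling. FTL, the light chain of the iron store ferritin, fell from 7732 and 8426 FPKM to 2167 and 2000 FPKM. TFRC, the transferrin receptor that brings iron into the cell, was at 11.4 and 13.8 FPKM at D28 and at 13.3 and 16.1 FPKM at D180, with overlapping pigs, and was lower only after scaling (-1.20, adjusted p = 5e-05). HMOX1, which breaks haem down, went the other way, from 0.448 and 0.361 FPKM to 2.90 and 2.25 FPKM (1.34 as deposited and 0.41 after scaling, adjusted p = 0.014). Of the 14 measured members, 7 passed the adjusted p as lower and 6 as higher as deposited, 10 and 1 after scaling, and 9 and 4 without the 10 most abundant mRNAs. On the first 2 scales 6 and 7 were called lower and 0 called higher.

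All 16 measured genes of the red cell membrane and surface passed the adjusted p as lower on every scale tried. Their median log2 difference was -1.63 as deposited and -2.94 after scaling. EPB42, a protein that anchors the membrane skeleton, was at 87.6 and 95.7 FPKM in the D28 pigs and at 7.67 and 7.37 FPKM in the D180 pigs, a 12.2-fold fall (-3.44 ± 0.07, limma adjusted p = 1.8e-08). RHCE, an Rh blood group protein, fell from 83.0 and 85.7 FPKM to 8.58 and 6.60 FPKM. ADD2, the beta adducin that caps actin in the skeleton, fell from 12.6 and 14.4 FPKM to 0.748 and 0.971 FPKM. SPTB, the beta chain of spectrin, fell from 13.8 and 14.7 FPKM to 2.12 and 2.05 FPKM, and SLC4A1, the band 3 anion exchanger, from 28.6 and 29.9 FPKM to 8.65 and 8.08 FPKM. The skeletal, transport and blood group members of the list thus moved in the same direction, with folds between D28 and D180 that ranged widely.

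Reticulocytes lose their organelles and much of their protein as they mature, and genes of that process fell too. UBE2O, a ubiquitin enzyme that clears ribosomes from reticulocytes, was at 133 and 135 FPKM at D28 and at 26.8 and 25.4 FPKM at D180 (-2.32 ± 0.07, limma adjusted p = 4.2e-08). TRIM58, a ubiquitin ligase of late red cell development, fell from 19.7 and 21.8 FPKM to 2.56 and 2.09 FPKM. The carbonic anhydrase CA2 fell from 27.7 and 31.7 FPKM to 3.51 and 3.15 FPKM, and the antioxidant enzyme PRDX2 from 278 and 348 FPKM to 64.0 and 60.5 FPKM. GATA1, the transcription factor of the red cell and platelet lineages, was at 15.9 and 16.2 FPKM at D28 and at 6.12 FPKM in both D180 pigs (-1.26 as deposited and -2.49 after scaling). AHSP, the chaperone of free alpha globin, changed less, from 195 and 146 FPKM to 106 and 90.5 FPKM. Of 20 measured members of the list, 15 passed the adjusted p as lower and 3 as higher as deposited, and 18 as lower and 0 as higher after scaling. The 10 most abundant mRNAs of these libraries held 3 with a symbol, HBB, FTL and TPT1. As deposited 6 of the 10 passed as lower and 3 as higher, and after scaling 6 as lower and 0 as higher. TPT1, an abundant protein of growing cells, was at 7700 and 8652 FPKM at D28 and at 6088 and 5642 FPKM at D180 (-0.48, adjusted p = 0.0043, and 0.0753 in a fit of only the 4 libraries).

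The largest falls by the naming rule held several genes outside these lists. NT5C3A, an enzyme that breaks down pyrimidine nucleotides as reticulocytes degrade their RNA, had the largest fall. It was at 379 and 427 FPKM in the D28 pigs and at 26.5 and 25.2 FPKM in the D180 pigs, 15.6-fold lower as deposited (-3.91 ± 0.11, limma adjusted p = 3.2e-08) and 46.6-fold lower after scaling (-5.39 ± 0.12). TFF1, a secreted trefoil peptide known from the stomach lining, was at 12.9 and 13.6 FPKM at D28, was listed at 0 in one D180 pig and was at 0.0251 FPKM in the other. It was also low at D7 (mean 0.0510 FPKM) and listed at 0 in both Y2 pigs, and it stood at a mean of 3.90 FPKM at D0. TMCC2, a membrane protein that red cell precursors express, fell from 103 and 99.9 FPKM to 8.03 and 7.66 FPKM. ASNS, which makes asparagine, fell from 44.6 and 45.6 FPKM to 3.92 and 3.44 FPKM.

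NCOA4, the receptor that delivers ferritin for breakdown and so frees iron, was the most abundant of the strongest falls, at 683 and 709 FPKM at D28 and at 85.5 and 93.0 FPKM at D180. PRXL2A fell from 220 and 240 FPKM to 27.1 and 20.3 FPKM, STRADB from 369 and 383 FPKM to 62.4 and 59.0 FPKM, TRMO from 233 and 304 FPKM to 34.1 and 34.3 FPKM, and MARCHF3, a membrane ubiquitin ligase, from 18.2 and 15.7 FPKM to 1.46 and 1.09 FPKM. In each of these the 4 pigs separated by age without overlap, which is a condition of the naming rule. BCL2L1, a survival factor that late red cell precursors need, was the only member of the apoptosis list called lower on either scale, from 34.5 and 40.5 FPKM to 5.96 and 5.16 FPKM. ARG1, the arginine-splitting enzyme listed here among granulocyte markers and also carried by red cells in humans, fell from 339 and 408 FPKM to 79.1 and 71.3 FPKM, against the direction of most granulocyte genes. The largest falls without a symbol were ENSSSCG00000031306, from 127 and 162 FPKM to 9.85 and 9.80 FPKM, and ENSSSCG00000025414, from 241 and 235 FPKM to 20.0 and 17.0 FPKM.

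Of the 111 mRNAs called lower on both scales, 88 had a symbol and 29 of these were in any gene list. In the red cell lists, which hold 54 of the 12354 mRNAs, were 27. In a list of monocyte, dendritic or granulocyte genes was 1 (ARG1), and 0 were in a lymphocyte list. All 111 had both D180 pigs below both D28 pigs on both scales, which the limits of a call make likely. Over all mRNAs this held for 3.89% as deposited and 35.8% after scaling. Over the 5 ages, the scaled mean was lowest at D180 for 106 of the 111 and highest at D0 for 80 and at D28 for 22. In 106 of them the scaled mean of the 2-year-old pigs lay between those of D28 and D180. These RNAs were selected for being lower at D180 than at D28, which favours D180 as their lowest age, so these counts are description only.

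**Figure D2:**
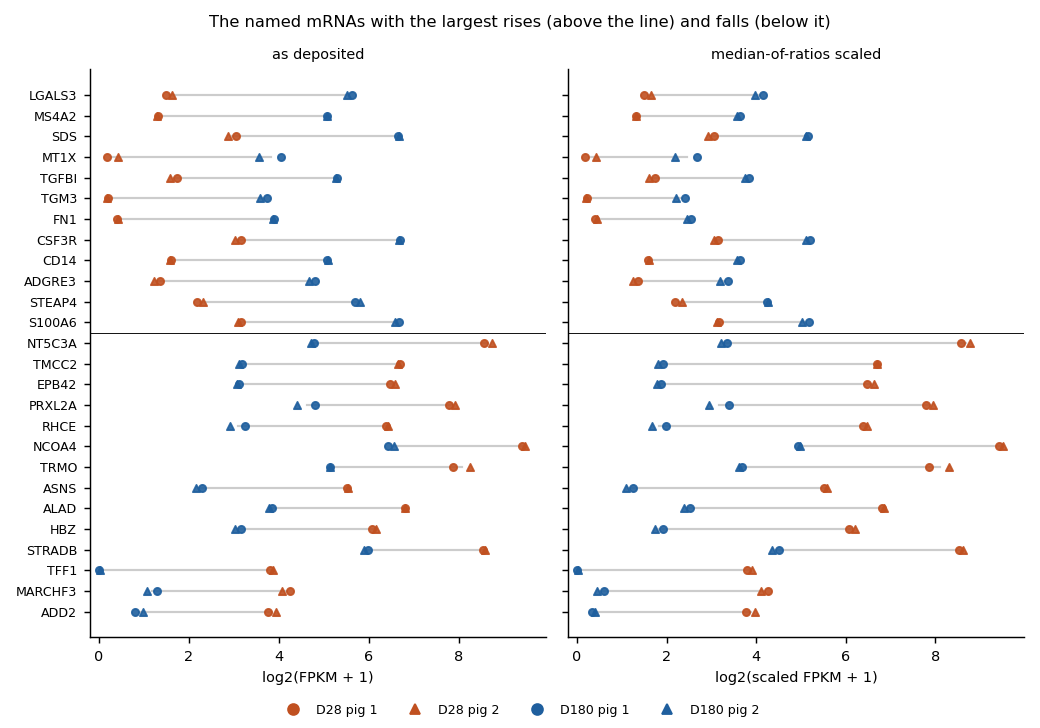
Level of each named mRNA in the 4 pigs on the log2(FPKM + 1) scale, as deposited (left) and after median-of-ratios scaling (right), for the 12 largest rises (above the line) and the falls described in the text (below the line). Circles and triangles are the first and second pig of an age and the grey bar joins the log2 of the age means plus 1. In no gene do the pigs of the 2 ages overlap on either scale, and the naming rule took only such genes.

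The strongest rises included genes known from monocytes, neutrophils and basophils. Of the 35 mRNAs with a symbol called higher on both scales, 8 were in any gene list and the rest in none. In the monocyte and granulocyte lists were 4, which hold 17 and 18 of the 12354 mRNAs. In a lymphocyte list was 1, TYROBP of the NK and cytotoxic list, an adaptor that monocytes and granulocytes share. In a red cell list were 0. The same 12 genes with a symbol led the list on both scales. LGALS3, a galectin made by monocytes and macrophages, was at 1.82 and 2.10 FPKM in the D28 pigs and at 48.2 and 44.8 FPKM in the D180 pigs. It was 23.8-fold higher as deposited (4.01 ± 0.10, limma adjusted p = 2.6e-08) and 7.95-fold higher after scaling (2.49 ± 0.09, adjusted p = 2.6e-07). MS4A2, the beta chain of the IgE receptor on basophils and mast cells, rose from 1.48 and 1.43 FPKM to 32.8 and 32.9 FPKM. TGFBI, a matrix protein that monocytes also make, rose from 2.32 and 2.01 FPKM to 38.4 and 37.5 FPKM. CSF3R, the receptor for the growth factor of neutrophils, rose from 7.89 and 7.13 FPKM to 103 and 101 FPKM, and CD14, the co-receptor for bacterial lipopolysaccharide on monocytes, from 2.02 and 2.00 FPKM to 32.6 and 33.0 FPKM.

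The rest of the 12 were SDS, STEAP4, S100A6, MT1X, TGM3, FN1 and ADGRE3. SDS, an enzyme that breaks down serine, was the most abundant of them with S100A6, and rose from 7.28 and 6.37 FPKM to 100 and 101 FPKM. STEAP4, a metal reductase of the cell surface, rose from 3.56 and 3.998 FPKM to 51.2 and 55.0 FPKM, and S100A6, a calcium-binding protein, from 7.97 and 7.56 FPKM to 101 and 95.7 FPKM. FN1, fibronectin, was at 0.327 and 0.343 FPKM at D28 and at 13.8 and 13.6 FPKM at D180. TGM3, a transglutaminase, rose from 0.159 and 0.141 FPKM to 12.4 and 10.98 FPKM, and ADGRE3, an adhesion receptor of myeloid cells, from 1.55 and 1.34 FPKM to 26.9 and 24.7 FPKM. MT1X, a metal-binding metallothionein from a family of near-identical copies, varied most between pigs of one age, with 0.132 and 0.336 FPKM at D28 and 15.6 and 10.7 FPKM at D180, and is uncertain for that reason. All 12 separated the ages without overlap on both scales, with the D180 pigs above, but the naming rule required this. Over all mRNAs it held for 92.4% as deposited and 32.1% after scaling. The largest rises without a symbol were ENSSSCG00000016183, from 3.51 and 2.92 FPKM to 61.1 and 59.8 FPKM, and ENSSSCG00000019401, from 0.0732 and 1.09 FPKM to 19.9 and 16.3 FPKM.

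For 47 of the 54 mRNAs called higher on both scales, D28 had the lowest scaled mean of all 5 ages. The highest scaled mean was at D7 for 27 of them, at D180 for 11 and at Y2 for 11. These genes were selected for being lower at D28 than at D180. D28 could thus not be their highest age and was favoured as their lowest, so these counts are description only.

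Many markers of monocytes and neutrophils rose, with exceptions in each list. Of 17 measured monocyte and dendritic cell markers, 11 were called higher as deposited, beside 17.8% of all mRNAs, 10 passed the adjusted p as higher and 3 as lower after scaling, and 10 passed the adjusted p as higher on all 3 scales. The median log2 difference of the list was 1.95 as deposited and 0.53 after scaling, beside 1.07 and -0.016 for all mRNAs. CSF1R, the receptor that maintains monocytes, rose from 2.52 and 1.91 FPKM to 20.2 and 20.1 FPKM (2.72 as deposited, 1.28 ± 0.09 after scaling, limma adjusted p = 1.8e-05). CD163, the scavenger receptor for haemoglobin, rose from 0.600 and 0.527 FPKM to 8.63 and 9.62 FPKM. CX3CR1, the fractalkine receptor of patrolling monocytes and cytotoxic lymphocytes, moved against the list, from 28.9 and 32.4 FPKM to 15.3 and 15.1 FPKM (-0.96 as deposited and -2.38 after scaling, adjusted p = 4.8e-07).

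Among 18 measured neutrophil and granulocyte markers, 11 were called higher as deposited and 3 after scaling (CSF3R, MMP9 and NCF1), beside 17.8% and 0.437% of all mRNAs, and ARG1 was the only one called lower. At the adjusted p alone, 15 passed as higher and 2 as lower as deposited, and 10 and 2 after scaling. The median log2 difference was 1.79 as deposited and 0.49 after scaling. MMP9, the gelatinase of neutrophil granules, rose from 0.495 and 0.928 FPKM to 16.8 and 15.7 FPKM, and NCF1, a subunit of the oxidase that makes superoxide, from 6.63 and 7.62 FPKM to 80.5 and 80.1 FPKM (1.78 ± 0.08 after scaling). The levels of the secondary granule proteins were low at both ages. LTF, lactoferrin, was at a mean of 0.446 FPKM at D28 and 0.127 FPKM at D180.

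B cell genes rose beyond the typical mRNA. Of 23 measured markers, 18 passed the adjusted p as higher and 0 as lower after scaling, beside 14.4% and 18% of all mRNAs, and these 18 passed as higher on all 3 scales. As deposited all 23 passed as higher, near the 90.6% of all mRNAs, and 19 were called, beside 17.8% of all mRNAs. The median log2 difference was 2.01 as deposited and 0.62 after scaling, the highest median of any list on either scale, and no member passed as lower on any of the 3. MS4A1, which encodes the B cell surface protein CD20, was at 13.5 and 15.7 FPKM in the D28 pigs and at 79.7 and 84.4 FPKM in the D180 pigs (2.42 ± 0.08 as deposited, 0.87 ± 0.08 after scaling, limma adjusted p = 7.4e-05). BANK1, an adaptor of B cell receptor signalling, rose from 6.22 and 5.16 FPKM to 35.2 and 39.7 FPKM, and PAX5, the transcription factor that fixes B cell identity, from 3.83 and 3.79 FPKM to 21.7 and 22.2 FPKM. After scaling these 3 were 1.88-, 2.203- and 1.93-fold higher. CD79A, a signalling chain of the B cell receptor, was at 8.17 and 6.26 FPKM at D28 and at 23.9 and 27.5 FPKM at D180, and its scaled difference of 0.23 did not pass (adjusted p = 0.15). The 8 measured plasma cell genes passed as higher as deposited, and 2 of them (IRF4 and DERL3) after scaling. JCHAIN, which joins secreted IgM and IgA, was at 8.53 and 14.2 FPKM at D28 and at 39.5 and 31.7 FPKM at D180, with a scaled difference of 0.09 (adjusted p = 0.86).

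The T cell genes gave no direction that held across the scales. Of 25 measured markers, 24 passed the adjusted p as higher as deposited, near the 90.6% of all mRNAs. After scaling 2 passed as higher and 10 as lower, beside 14.4% and 18% of all mRNAs, and without the 10 most abundant mRNAs 12 as higher and 2 as lower. The median log2 difference was 1.01 as deposited, near the median of all mRNAs, and -0.26 after scaling. CD3E, a chain of the T cell receptor complex, was at 30.8 and 32.8 FPKM in the D28 pigs and at 64.4 and 65.2 FPKM in the D180 pigs as deposited, and at 30.7 and 33.7 against 22.5 and 21.5 scaled FPKM. CD4, the co-receptor of helper T cells, likewise rose as deposited (0.84) and fell after scaling (-0.61, limma adjusted p = 0.0019). IL7R and LEF1, a cytokine receptor and a transcription factor of naive T cells, were the 2 markers that passed as higher on all 3 scales. IL7R went from 14.1 and 14.6 FPKM to 54.3 and 60.2 FPKM and LEF1 from 18.2 and 20.2 FPKM to 79.8 and 80.3 FPKM, with scaled differences of 0.39 and 0.46. CD8A, the co-receptor of cytotoxic T cells, was at 26.2 and 20.0 FPKM at D28 and at 15.2 and 21.7 FPKM at D180. These pigs overlapped as deposited (-0.32, adjusted p = 0.10), and after scaling CD8A was the only T cell marker called in either direction (-1.76, adjusted p = 4.2e-05).

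Of 65 measured genes of T cell receptor signalling, 62 passed as higher as deposited, near the 90.6% of all mRNAs. After scaling 10 passed as higher and 16 as lower, beside 14.4% and 18% of all mRNAs. The list holds genes that other cells use as well. LCK, the first kinase of the T cell receptor, was at 26.1 and 23.5 FPKM at D28 and at 33.9 and 32.9 FPKM at D180, with a difference of 0.42 as deposited and -1.08 after scaling.

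Of 22 rows measured for 21 NK and cytotoxic cell markers (GZMA has 2 identifiers), 7 passed as higher and 7 as lower as deposited, and 2 as higher and 17 as lower after scaling, with 7 lower on all 3 scales. The shares of all mRNAs were 90.6% higher and 3.32% lower as deposited, and 14.4% and 18% after scaling. CCL5, a chemokine stored by cytotoxic cells, was at 133 and 129 FPKM in the D28 pigs and at 81.4 and 66.0 FPKM in the D180 pigs (-0.83 ± 0.11 as deposited, limma adjusted p = 0.00011, and -2.37 ± 0.12 after scaling). PRF1, perforin, was at 7.86 and 7.97 FPKM at D28 and at 6.42 and 6.25 FPKM at D180 (-0.28, adjusted p = 0.006, and -1.52 after scaling). NKG7, a granule protein, was at 44.7 and 46.3 FPKM against 42.6 and 39.3 FPKM, and passed as lower only on the 2 rescaled tables. CTSW, a protease of these cells, was at 72.9 FPKM in one D28 pig and at 19.2 FPKM in the other, so that the ages overlapped as deposited. The 2 members that passed as higher on all 3 scales were TYROBP and FCER1G, signalling adaptors that monocytes and granulocytes share. FCER1G did not pass after scaling in a fit of only the 4 libraries (adjusted p = 0.138). TYROBP rose from 18.3 and 15.9 FPKM to 153 and 157 FPKM.

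**Figure D3:**
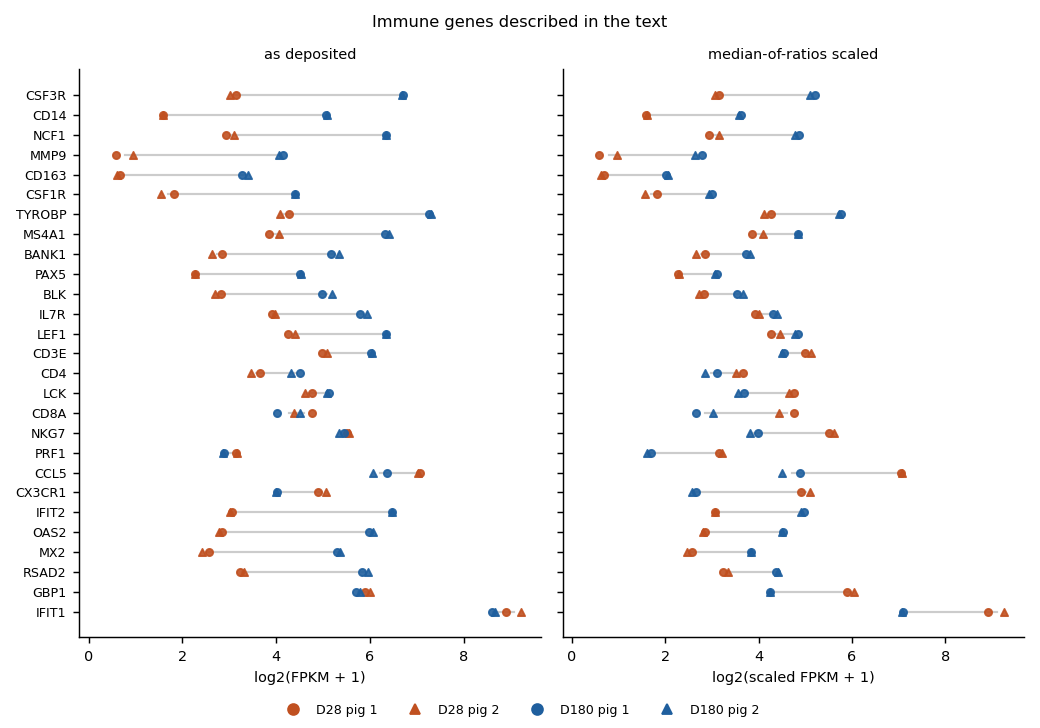
Level in each of the 4 pigs on the log2(FPKM + 1) scale, as deposited (left) and after median-of-ratios scaling (right). From the top are genes of monocytes and granulocytes (CSF3R to CSF1R), TYROBP of the NK and cytotoxic list, and B cells (MS4A1 to BLK). Below are genes of T cells (IL7R to CD8A), cytotoxic cells (NKG7 to CCL5), CX3CR1 of the monocyte list and the interferon response (IFIT2 to IFIT1). Markers are as in the plot of the strongest mRNAs. The plotted genes from CSF3R to BLK were higher at D180 on both scales and CX3CR1 was lower on both. CD3E, CD4 and LCK changed sides with the scale. ARG1 of the granulocyte list, which fell on both scales, is not plotted.

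Genes induced by interferon, the antiviral cytokine, did not all move one way. Of 30 measured members, 19 were called higher as deposited, beside 17.8% of all mRNAs. After scaling 15 passed the adjusted p as higher and 7 as lower, beside 14.4% and 18% of all mRNAs. On all 3 scales 15 passed as higher and 2 as lower. IFIT2 was at 7.37 and 7.09 FPKM in the D28 pigs and at 87.8 and 88.3 FPKM in the D180 pigs (3.44 ± 0.06 as deposited, 1.89 ± 0.06 after scaling, limma adjusted p = 7.5e-08). OAS2, which makes the second messenger that activates RNA decay, rose from 6.23 and 5.85 FPKM to 62.7 and 65.9 FPKM, MX2 from 4.90 and 4.37 FPKM to 38.3 and 40.0 FPKM, and RSAD2 from 8.40 and 8.94 FPKM to 56.2 and 61.7 FPKM. IFIT1, beside IFIT2 in the genome, went the other way, from 482 and 595 FPKM to 389 and 404 FPKM (-0.43, adjusted p = 0.0033, and -2.01 after scaling). GBP1 fell from 58.6 and 63.0 FPKM to 51.3 and 54.3 FPKM (-0.20, adjusted p = 0.02, and -1.73 after scaling), and its deposited difference did not pass in a fit of only the 4 libraries (adjusted p = 0.0656) or without the second D28 or the first D180 pig (0.105 and 0.104). ISG15 and CXCL10 had differences of 0.20 and -0.09 as deposited, which did not pass (adjusted p = 0.16 and 0.27), and were lower after scaling (-1.25 and -1.15).

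All 20 measured Toll-like receptors and adaptors passed as higher as deposited, where 90.6% of all mRNAs did. After scaling 14 passed as higher and 1 as lower, beside 14.4% and 18% of all mRNAs, and the 14 passed as higher on all 3 scales. TLR1 rose from 1.65 and 2.02 FPKM to 13.4 and 14.6 FPKM, TLR2 from 1.11 and 1.07 FPKM to 9.06 and 8.46 FPKM, and TLR4, the sensor of lipopolysaccharide, from 0.959 and 0.973 FPKM to 7.98 and 7.97 FPKM, with scaled differences of 1.01, 0.91 and 0.90. Of these 20, CD14 was the only one called after scaling. IRAK2, a kinase downstream of these receptors, rose as deposited (0.69) and fell after scaling (-0.47).

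Of 51 measured interleukins, chemokines and receptors, 20 passed as higher and 3 as lower on all 3 scales. After scaling 20 passed as higher and 13 as lower, beside 14.4% and 18% of all mRNAs. Of the 13, 5 had the fold needed for a call, and 0 genes were called higher. Without the 10 most abundant mRNAs 33 passed as higher and 11 as lower. IL18, which inflammasomes release, had the largest scaled rise of the list, from 0.300 and 0.223 FPKM to 6.29 and 7.80 FPKM (1.42 ± 0.09, limma adjusted p = 5.5e-06). IFNAR1 and IFNGR2, receptor chains for the interferons, rose from 8.86 and 8.67 FPKM to 60.3 and 62.5 FPKM and from 1.76 and 1.56 FPKM to 14.6 and 14.9 FPKM. Those lower on all scales included CX3CR1 and CCL5, of which CCL5 also belongs to the cytotoxic list.

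All 10 measured genes of the MHC class II pathway passed as higher as deposited and on the scale without the 10 most abundant mRNAs, and 6 passed as higher and 1 as lower after median-of-ratios scaling. Among all mRNAs, 90.6% passed as higher as deposited, and 14.4% as higher and 18% as lower after scaling. CD74, the invariant chain, was at 108 FPKM in both D28 pigs and at 393 and 370 FPKM in the D180 pigs (0.23 after scaling, limma adjusted p = 0.043, and 0.188 in a fit of only the 4 libraries). Of the 13 genes of the class I pathway, 12 passed as higher and 0 as lower as deposited, 8 and 1 without the 10 most abundant mRNAs, and 0 and 9 after median-of-ratios scaling. Their median was 1.16 as deposited, near that of all mRNAs, and -0.36 after scaling, and a difference between the pathways was not tested. CALR, a chaperone of class I loading and of the endoplasmic reticulum, was at 83.4 and 138 FPKM at D28 and at 103 and 98.8 FPKM at D180. The pigs of the 2 ages overlapped as deposited, and CALR was the only class I gene called after scaling (-1.64, adjusted p = 0.001). The MHC genes vary between animals and have similar copies, so their FPKM is uncertain.

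Platelet markers gave no direction that held across the scales. Their median log2 difference was 1.11 as deposited, near the 1.07 of all mRNAs, and -0.26 after scaling, below the -0.016 of all mRNAs. Of 19 measured, 17 passed as higher and 0 as lower as deposited, 2 as higher and 7 as lower after scaling, and 9 and 1 without the 10 most abundant mRNAs. For this and the next lists, the shares of all mRNAs were 90.6% higher and 3.32% lower as deposited, and 14.4% and 18% after scaling. PPBP, an abundant chemokine of platelets, was at 88.5 and 85.5 FPKM at D28 and at 180 and 169 FPKM at D180, which is 88.3 and 88.1 against 62.7 and 55.8 scaled FPKM. Ribosomal proteins, oxidative phosphorylation and cell division genes also changed direction with the scale. Of 46 ribosomal proteins, 43 passed as higher as deposited, 31 as lower after scaling, and 19 as higher and 9 as lower without the 10 most abundant mRNAs. Of 57 genes of oxidative phosphorylation, 52 passed as higher and 4 as lower as deposited, 0 and 29 after scaling, and 21 and 10 without the 10 most abundant mRNAs. COX7B and UQCR10, small subunits of respiratory complexes, were 2 of the 4 that fell on every scale, COX7B from 147 and 153 FPKM to 57.5 and 54.9 FPKM and UQCR10 from 77.3 and 83.0 FPKM to 28.7 and 27.0 FPKM. Of 25 cell division genes, 19 passed as higher and 2 as lower as deposited, 0 and 15 after scaling, and 6 and 7 without the 10 most abundant mRNAs. UBE2C, which helps to end mitosis, fell on every scale, from 17.2 and 17.9 FPKM to 8.84 and 8.69 FPKM.

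Part of the lysosomal genes and some stress genes rose beyond the typical mRNA. Of 41 measured lysosome genes, 40 passed as higher as deposited, near the 90.6% of all mRNAs. After scaling 19 passed as higher and 4 as lower, beside 14.4% and 18% of all mRNAs, and 19 passed as higher on all 3 scales. CTSH, a cathepsin, rose from 5.37 and 5.26 FPKM to 34.1 and 33.6 FPKM (0.97 ± 0.07 after scaling, limma adjusted p = 2e-05), while SMPD1, the acid sphingomyelinase, was at 5.81 and 5.82 FPKM against 6.71 and 5.76 FPKM. Of 22 glucocorticoid and stress genes, 8 passed as higher and 5 as lower after scaling, with a median of -0.046, so the list as a whole did not rise. SGK1 was the only one called on both scales, from 5.58 and 4.59 FPKM to 51.5 and 53.2 FPKM (3.14 as deposited, 1.61 after scaling). TXNIP, an inhibitor of thioredoxin, rose from 23.6 and 21.9 FPKM to 165 and 167 FPKM (1.25 after scaling). Of 25 apoptosis genes, 24 passed as higher as deposited, near the share of all mRNAs, while after scaling 5 passed as higher, CASP1 among them (0.86), and 4 as lower, with a median of -0.01. Of 56 chromatin and transcription regulators, 55 passed as higher as deposited, while after scaling 7 passed as higher and 5 as lower, with a median of 0.04. Of 23 muscle filament genes, 3 were measured and their highest summed level was 20.3 FPKM.

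**Figure D4:**
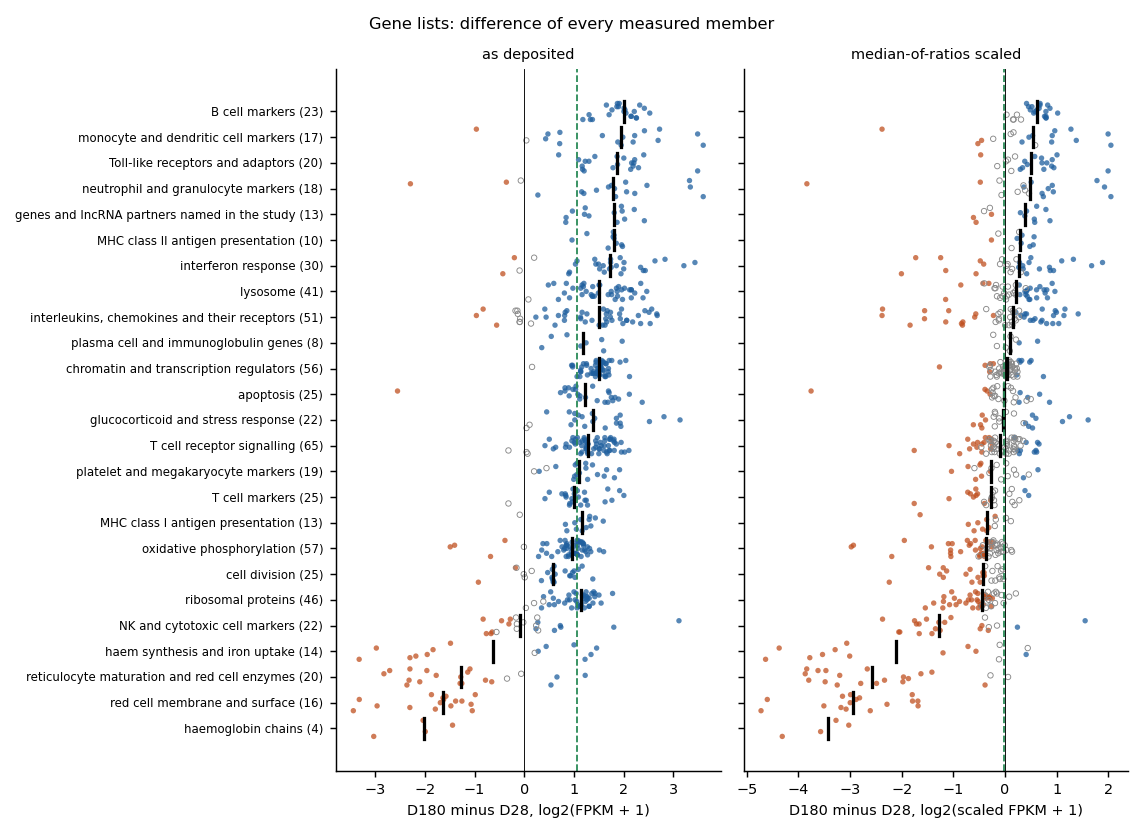
Difference of every measured member of each gene list on the log2 scale, as deposited (left) and after median-of-ratios scaling (right), with the number of rows in brackets. Filled points passed an adjusted p of 0.05 (blue higher, orange lower at D180), open points did not, black bars are list medians and the dashed green line is the median of all mRNAs; the medians of the 4 red cell lists lie below 0 on both scales and that of the B cell list above the green line on both.

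The 13 genes that the study singles out were chosen by its authors on these samples, so their direction is no independent evidence. All 13 passed as higher as deposited, where 90.6% of all mRNAs did. After scaling 8 passed as higher and 3 as lower, beside 14.4% and 18% of all mRNAs. BLNK, an adaptor of the B cell receptor, had a scaled difference of 0.79 and NFATC2, a transcription factor of activated T cells, one of -0.26 (limma adjusted p = 0.042, and 0.0743 in a fit of only the 4 libraries).

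lncRNAs are transcripts with little or no coding capacity that can act on chromatin or on other RNAs. These were assembled by the authors from the same reads, and isoforms of a locus are listed as separate transcripts that share reads. As deposited, 216 lncRNAs (3.63% of all tested) were called higher and 23 (0.387%) lower at D180. After scaling, 4 (0.0673%) were called higher and 32 (0.538%) lower. At the adjusted p alone, 3320 (55.8%) and 166 (2.79%) passed as deposited, and 227 (3.82%) and 127 (2.14%) after scaling. All 4 called higher after scaling were also called as deposited, and 20 lncRNAs were called lower on both scales, from 13 loci. One unplaced scaffold with 29 lncRNAs held 49.6% and 75.4% of the summed lncRNA FPKM in the D28 pigs and 46.1% and 42.6% in the D180 pigs. Some lncRNAs on it varied strongly between pigs of one age. TCONS_00193537 on that scaffold was at 661 and 3264 FPKM at D28 and at 378 and 208 FPKM at D180 and did not pass the test (adjusted p = 0.37 as deposited). The most abundant lncRNA, the unplaced TCONS_00193513, varied less, at 1547 and 1273 FPKM at D28 and at 2900 and 2431 FPKM at D180.

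The lncRNAs that were lower at D180 lay mostly between genes. Of the 23 called lower as deposited, 17.4% overlapped a protein-coding gene of the RefSeq annotation of Sscrofa11.1, against 80.6% of the 216 called higher and 51.9% of all lncRNAs listed. After scaling the shares were 25% of the 32 called lower and 50% of the 4 called higher, the latter near that of all lncRNAs. Transcripts of one locus are counted separately in these shares. A pair of overlapping transcripts on chromosome 17 stood out by the agreement of the pigs within each age. TCONS_00085387 (chr17:34827914-34828114, minus strand, 8322 bases from TRIB3) was at 11.2 FPKM in both D28 pigs and at 0.568 and 0.392 FPKM in the D180 pigs (-3.05 as deposited, -3.41 after scaling, limma adjusted p = 0.00031). The longer TCONS_00085386 (chr17:34827052-34828114) was at 11.102 and 11.6 FPKM and at 0.608 and 0.895 FPKM. TRIB3, a pseudokinase of the stress response, was at 0.145 and 0.134 FPKM at D28 and at 0.529 and 0.435 FPKM at D180. Its scaled difference was 0.028 (limma adjusted p = 0.78), and at so low a level a fall could hardly be seen.

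Other loci of the falls held several transcripts as well. On chromosome 5, TCONS_00133417 (chr5:42308951-42314800, plus strand, 9355 bases from KIAA1551) fell from 22.9 and 23.5 FPKM to 2.80 and 4.40 FPKM, and 3 further transcripts of that locus were called lower on both scales. On chromosome 14, TCONS_00055095 (chr14:33945514-33958939, plus strand) was at 9.33 and 9.30 FPKM at D28, listed at 0 in one D180 pig and at 0.512 FPKM in the other, with no protein-coding gene within 100 kb. It was also listed at 0 in both D0 and both Y2 pigs and had a mean of 1.94 FPKM at D7, so that its level was highest at D28. TCONS_00038691 (chr13:21310133-21310405, plus strand) fell from 30.4 and 52.2 FPKM to 7.44 and 7.79 FPKM, and TCONS_00119400 (chr3:118016880-118018031, minus strand, 4994 bases from the plasma cell gene SDC1) from 9.37 and 9.78 FPKM to 0.793 and 1.38 FPKM. SDC1 was at 0.129 and 0.146 FPKM at D28 and at 0.527 and 0.379 FPKM at D180. Its scaled difference was 0.018 (limma adjusted p = 0.85), and at so low a level a fall could hardly be seen. In each lncRNA named at these loci both D180 pigs lay below both D28 pigs, as the naming rule required. Over all lncRNAs this held for 5.77% as deposited and 13.8% after scaling.

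A pair of the lncRNAs called lower on both scales lay in or near red cell genes that fell. TCONS_00111190 and TCONS_00046619 are outside the naming rule and were picked from the lncRNAs called on both scales. TCONS_00111190 lies within ADD2, the adducin gene described above, and went from 3.81 and 3.59 FPKM to 0.0795 and 0.0886 FPKM (-2.12 as deposited, -2.21 after scaling). TCONS_00161585 (chr7:43800982-43807007, plus strand) overlaps CRISP3 and lies 70038 bases from RHAG, the Rh-associated glycoprotein of red cells. It fell from 45.4 and 45.1 FPKM to 18.1 and 12.3 FPKM, CRISP3 from 0.823 and 0.794 FPKM to 0.220 and 0.123 FPKM, and RHAG from 17.6 and 18.3 FPKM to 5.50 and 4.71 FPKM. TCONS_00046619 overlaps XCR1, a chemokine receptor of dendritic cells, and went from 2.35 and 1.73 FPKM at D28 to a listed 0 in both D180 pigs. XCR1 itself was higher as deposited (0.43, limma adjusted p = 0.0011), but its difference was 0.0003 without the 10 most abundant mRNAs. TCONS_00069806, called lower on both scales, lay 17311 bases from SLC16A14, which also fell (-0.95 as deposited, -1.81 after scaling). Of 11 genes measured near the lncRNAs with the largest falls, which exclude ADD2 and XCR1, 8 passed as higher and 3 as lower as deposited. After scaling 3 passed as lower. Among all mRNAs, 90.6% passed as higher and 3.32% as lower as deposited, and 18% as lower after scaling. Whether these genes follow the lncRNAs was not tested.

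The 4 lncRNAs called higher on both scales were TCONS_00193155, TCONS_00113530, TCONS_00088327 and TCONS_00067703. Both D180 pigs lay above both D28 pigs in these, as the naming rule required. Over all lncRNAs this held for 66% as deposited and 39.9% after scaling. TCONS_00193155, on an unplaced scaffold, went from 0.384 and 0.735 FPKM to 10.7 and 13.5 FPKM (3.07 as deposited, 1.71 after scaling). In a scaled limma fit of only the 4 libraries, TCONS_00193155 and TCONS_00067703 did not pass (adjusted p = 0.055 and 0.0845), while TCONS_00113530 and TCONS_00088327 did (0.0317 and 0.0275). TCONS_00067703 (chr15:75510956-75514118, plus strand) overlaps DHRS9, a retinol dehydrogenase. It rose from 0.644 and 0.0995 FPKM to 8.54 and 8.33 FPKM (2.81 as deposited and 1.52 after scaling, limma adjusted p = 0.028), and DHRS9 rose from 5.27 and 4.56 FPKM to 42.5 and 44.1 FPKM (2.91 and 1.39). Reads of the host gene that were assigned to this lncRNA cannot be told apart from its own here. TCONS_00113530 (chr3:128555141-128555611, plus strand) was listed at 0 and at 0.0425 FPKM in the D28 pigs and was at 6.09 and 6.99 FPKM in the D180 pigs. It was also listed at 0 in both D7 and both Y2 pigs, and had a mean of 7.64 FPKM at D0. TCONS_00088327 (chr18:34136384-34164042, plus strand) lies within IMMP2L, a gene of the mitochondrial inner membrane peptidase. It was listed at 0 in both D28 pigs and was at 5.66 and 5.85 FPKM in the D180 pigs. TCONS_00088328 has the same span, was chosen after its values were seen, and went the other way, from 2.35 and 2.29 FPKM to a listed 0 in both D180 pigs.

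**Figure D5:**
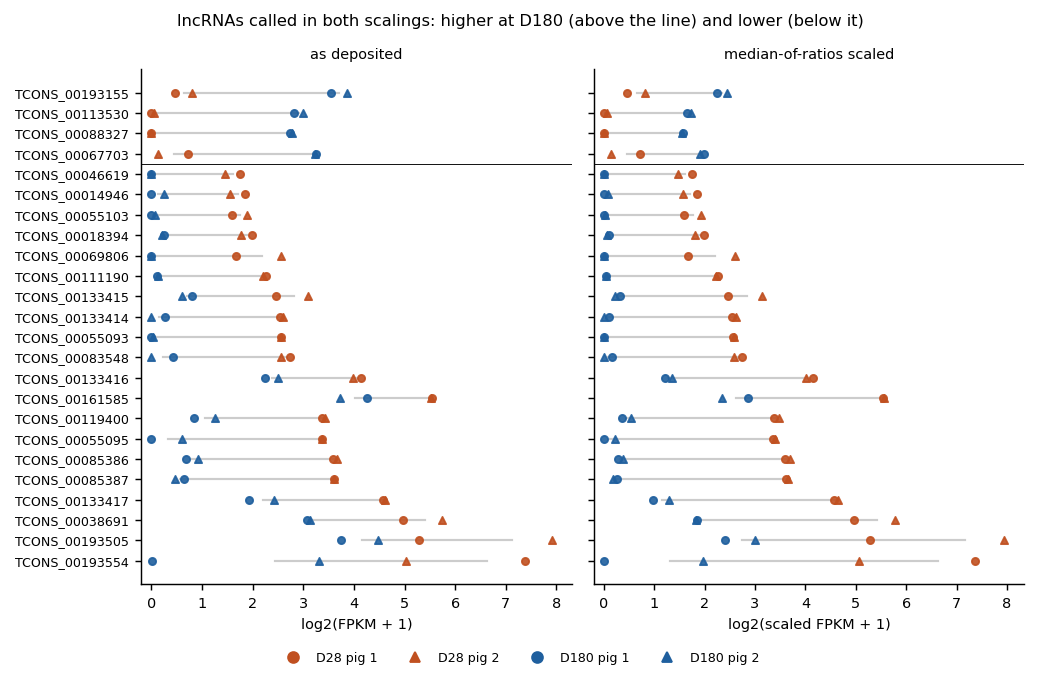
Level in each of the 4 pigs on the log2(FPKM + 1) scale of the 24 lncRNAs called on both scales, as deposited (left) and after median-of-ratios scaling (right), with the 4 that were higher at D180 above the line. Markers are as in the plot of the strongest mRNAs; the pigs of the 2 ages are apart in each of them, and the unplaced TCONS_00193554 and TCONS_00193505 spread most within an age.

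Among the called lncRNAs, the largest rise as deposited was that of TCONS_00100228 (chr2:6753887-6757177, minus strand). It was listed at 0 and at 16.1 FPKM in the D28 pigs and was at 102 and 114 FPKM in the D180 pigs (4.72 ± 1.60, limma adjusted p = 0.036, 0.118 in a fit of only the 4 libraries, and 0.37 after scaling). The unplaced TCONS_00193545 had a larger difference as deposited (7.43) but was not called (limma adjusted p = 0.17). The largest fall of a called lncRNA on both scales was that of the unplaced TCONS_00193554, from 164.5 and 31.5 FPKM to 0.00677 and 8.90 FPKM (-4.54 ± 1.204 as deposited, -5.23 ± 0.99 after scaling). It did not pass in a fit of only the 4 libraries (adjusted p = 0.124 as deposited and 0.133 after scaling). TCONS_00193538 had a larger fall as deposited (-5.10) but was not called (limma adjusted p = 0.34). Among other lncRNAs called higher as deposited alone, TCONS_00130021 (chr4:111151356-111158305, minus strand, overlapping GPSM2) was listed at 0 in both D28 pigs and was at 16.04 and 14.2 FPKM in the D180 pigs. TCONS_00100244 (chr2:6796516-6802404, minus strand) went from 0.644 and 0.744 FPKM to 13.6 and 39.8 FPKM. Neither passed after scaling (limma adjusted p = 0.097 and 0.09). The 5 lncRNAs that the study names were again chosen on these samples. TCONS_00086451 (chr17:52874827-52890259), which overlaps NFATC2, was at 2.41 and 2.02 FPKM at D28 and at 5.52 and 5.44 FPKM at D180 (1.01 as deposited, and -0.18 after scaling, adjusted p = 0.33). TCONS_00175878, overlapping the kinase gene TEC, went from 0.130 and 0.146 FPKM to 1.97 and 2.10 FPKM (1.42 as deposited and 0.57 after scaling, adjusted p = 0.0071). TCONS_00026570 fell from 34.5 and 41.3 FPKM to 15.4 and 11.8 FPKM (-1.42 as deposited and -2.82 after scaling, adjusted p = 0.0011).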

How the data were processed

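Peripheral blood RNA of 10 pigs of 5 ages was measured, 2 pigs at each age, and groups were taken from the labels. Per the labels and methods, reads were processed with CASAVA 1.8.2, HISAT2 2.0.4, StringTie 1.3.3 and Cufflinks 2.2.1 against Sscrofa11.1. The FPKM values were deposited by the authors for mRNAs above 0.5 and lncRNAs above 0.1 FPKM in at least one library. Read counts per transcript were not used here, so the depth behind each value is unknown and no counting interval is given. Symbols were paired with 9735 of 12354 mRNA identifiers. A few genes that the naming rule covers are not reported here.

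Values were analysed as log2(FPKM + 1) with limma 3.58.1 (R 4.3.3), with a mean-variance trend, over all 10 libraries, as deposited and after division by median-of-ratios factors from 11527 mRNAs above 0 in every library. The same factors were used for lncRNAs. The code was tested on simulated data. Named were the 12 called features with the largest difference each way per table and scale among those whose pigs did not overlap, the 10 mRNAs and 5 lncRNAs of highest mean, members of the gene lists, features that the study names, and genes nearest to named lncRNAs. The comparison and lists were chosen with earlier results of these data known. Other settings were another pseudocount, fold limit, filter, scaling and set of libraries, no trend, a replicate block, and leaving out each pig. Gene positions came from RefSeq for Sscrofa11.1. Tables were handled with Python 3.11.15, pandas 2.3.3 and numpy 2.4.6, and plots drawn with matplotlib 3.10.9.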

Additional observations from a re-analysis of the deposited data

How the results depend on the processing

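Counts are given as called higher and lower at D180. With a pseudocount of 0.1, mRNA calls were 5845 higher as deposited, and 292 higher and 516 lower after scaling, and lncRNA calls were 2564 and 146 as deposited and 120 and 144 after scaling. With the fold limit on the ratio of mean FPKM, mRNA calls were 6486 and 171 as deposited and 442 and 569 after scaling, and lncRNA calls 2763 and 89, and 119 and 93. Without the 10 most abundant mRNAs, mRNA calls were 249 and 215, and 26 lncRNAs were higher. Factors from the 4 libraries alone gave 94 mRNAs and 9 lncRNAs higher after scaling, and a fit of only these 4 gave 16 lncRNAs lower after scaling.

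Leaving out each pig in turn, with the lone pig of an age assumed to vary like the other groups, gave 2085 to 2455 mRNAs higher and 105 to 116 lower as deposited, and 54 to 64 higher and 312 to 341 lower after scaling. For lncRNAs it gave 197 to 257 and 21 to 26 as deposited, and 4 to 7 and 24 to 31 after scaling, where the 7 came without the second D180 pig. Same-numbered pigs of the 2 ages are different animals, and the correlation of their deviations was -0.0819 and -0.093 for mRNAs and 0.0978 and 0.118 for lncRNAs. They share only a number, and with the replicate block mRNA calls were 2195 and 111 as deposited and 54 and 320 after scaling, and lncRNA calls 216 and 24, and 3 and 27.

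Without the 10 most abundant mRNAs, these log2 differences changed sign: CD4 (-0.0121), LCK (-0.46) and IRAK2 (-0.0188) against the deposited scale, and CD3E (0.11), PPBP (0.0909), NFATC2 (0.35) and GPSM2 (0.0128) against the scaled one. The cause was not tested. Of the named differences that passed, 21 did not in a fit of only the 4 libraries, which has fewer samples for the spread, 10 with factors from those libraries, 8 with the replicate block and 8 to 15 without 1 pig. The 4 lncRNAs called higher after scaling shrank to 2 of these 4 in either fit of the 4 libraries and to 3 with the block. TCONS_00067703 lost its scaled pass under the block (adjusted p = 0.0548) and without the second D28, the first D180 or the second D180 pig (0.117, 0.139 and 0.109), and TCONS_00046619 and TCONS_00055095 lost theirs without any 1 pig (0.108 to 0.162 and 0.135 to 0.172). With 2 pigs at each age and no read counts, the spread rests on the model shared over all rows.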
